A study of Homo sapiens with 8 samples.

Results

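The comparison described here sets PDE10A knockout clone 2F4 of SKOV3 against parental SKOV3, with 2 libraries of KO 2F4 and 2 libraries of parental cells, 4 of the 8 libraries of the series, chosen by their labels. SKOV3 is an established human ovarian cancer cell line, and RNA from untreated cells was sequenced from 2 culture passages per line. The remaining 4 libraries come from a second knockout clone, KO 5H5, and from an empty vector clone, EV 1B9, and are used for the spread between libraries and for side-by-side values. KO 2F4 is 1 clone carrying a knockout of PDE10A, and the parental cells carry neither knockout nor vector, so the effect of losing PDE10A and the history of the clone cannot be told apart. P-values rest on how far passages of a line lay apart in all 4 lines, and not on differences between clones.

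PDE10A is a phosphodiesterase that hydrolyses cAMP and cGMP. These cyclic nucleotides are made by adenylyl and guanylyl cyclases and act through protein kinases A and G, exchange factors and ion channels. Among the transcription factors downstream is CREB, which binds the cAMP response element. In several tumour types cyclic nucleotide signalling has been connected with beta-catenin, the coactivator of TCF and LEF factors in the Wnt pathway, and with the RAS and ERK cascade.

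Counts assigned to genes were 19656693 and 17157246 in KO 2F4 libraries 1 and 2, against 15483683 and 21482210 in parental libraries 1 and 2. Reads outside genes or without a unique gene were 25.7% and 33.4% of the counted reads in KO 2F4, against 44.6% and 26.9% in parental cells. The rank correlation of each gene's deviation from the mean of all libraries with GC content was 0.08 and 0.43 in KO 2F4, against 0.41 and 0.26 in parental cells. KO 2F4 library 2 and parental library 1 had the higher value of their line in both measures. Levels below are CPM, the counts of a gene relative to the library's total, with TMM scaling, always given for library 1 and then library 2.

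Of 8 genes read for the identity of SKOV3, 7 were tested and none was called between the lines by edgeR (2 at an unadjusted p of 0.05, 0 by DESeq2). ERBB2, the receptor tyrosine kinase amplified in this line, stood at 1336 and 1689 CPM in KO 2F4, against 1538 and 1852 CPM in parental cells (log2 fold change -0.16, adjusted p 0.924). PAX8, a transcription factor of the Muellerian lineage, had 246 and 506 CPM in KO 2F4, against 350 and 351 CPM in parental cells. CDKN2A, the cell cycle inhibitor lost in SKOV3, had no count in KO 2F4, against 0 and 0.0925 CPM in parental cells. KRT7, a keratin of simple epithelia, was lower in both KO 2F4 libraries at 792 and 1927 CPM, against 4444 and 2353 CPM in parental cells, and missed the threshold (adjusted p 0.329). ARID1A, a chromatin remodelling subunit, had 14.4 and 32.2 CPM in KO 2F4, against 54.9 and 65.3 CPM in parental cells (adjusted p 0.198). The summed level of 9 haematopoietic markers was 1.77 and 1.97 CPM in KO 2F4, against 2.49 and 1.57 CPM in parental cells. That of 8 neuronal markers was 6.52 and 5.02 CPM in KO 2F4, against 12.7 and 6.66 CPM in parental cells. That of 8 endothelial markers was 66.4 and 143 CPM in KO 2F4, against 208 and 96.3 CPM in parental cells, nearly all of it EGFL7. The endothelial and haematopoietic sums of the groups overlapped, and the neuronal sum was lower in both KO 2F4 libraries, with 4 and 3 of its 8 markers at 0 in KO 2F4, against 2 and 3 in parental cells.

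PDE10A itself, at chr6:165327287-165988078 on the minus strand of GRCh38, gave 4 and 31 reads in KO 2F4, against 120 and 55 reads in parental cells. In CPM this was 0.196 and 2.26 in KO 2F4, against 9.04 and 2.54 in parental cells. The groups did not overlap, but KO 2F4 library 2 lay close to parental library 2. The difference was not called in the test across all genes (log2 fold change -2.26, SE 0.98, adjusted p 0.32). Without KO 2F4 library 2 the log2 fold change was -4.80 (adjusted p 0.00186), and without parental library 2 it was -2.88 (adjusted p 0.0293). Without parental library 1 it was -1.10 (adjusted p 0.81), and without KO 2F4 library 1 it was -1.33 (adjusted p 0.445). KO 2F4 library 2 had no read of KRT17, against 605 to 1453 CPM in the parental libraries, and KO 2F4 library 1 had 0.441 CPM of it. The source of the PDE10A reads in KO 2F4 library 2 was not tested. A knockout can leave its transcript in place, and counts per gene do not show whether the reading frame is intact.

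Most called genes were lower in KO 2F4 than in parental cells, among them basal keratins, Wnt ligands, a calcium channel subunit and matrix proteins, many of them near 0 in KO 2F4. Of 15551 genes tested, 208 (1.34%) passed an adjusted p of 0.05, with 47 higher in KO 2F4 (0.302%) and 161 lower (1.04%). The median log2 fold change was 3.0 among the genes that rose and -4.01 among those that fell, against -0.03 over all genes tested. Of the genes that fell, 24 had no count in either KO 2F4 library, and placing these at the limit set by 3 counts over the group left the median at -4.01. Protein-coding genes made up 191 of the called genes, 45 higher and 146 lower. All 208 lay without overlap between the 2 KO 2F4 and the 2 parental libraries, as did 6341 of all genes tested (40.8%). At an unadjusted p of 0.05 the number was 2153.

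The number of called genes moved with the libraries and the model. Without parental library 1 it was 214 (21 higher, 193 lower), and without parental library 2 it was 804, where the balance turned to 442 higher and 362 lower. Without KO 2F4 library 1 it was 1239 (396 higher, 843 lower), and without KO 2F4 library 2 it was 533 (141 higher). In all, 142 genes (16 higher, 126 lower) were called under all 4 omissions. With offsets for GC content and gene length 588 genes passed, 308 of them higher, so that 52.4% of the calls were higher, against 22.6% without offsets. The same 208 genes were among the 588 and kept their direction. DESeq2 called 727 genes, 264 higher and 463 lower (36.3% higher), and these included all 208. With the 4 libraries alone 53 genes passed, and 33 of the 60 named called genes lost their call, among them SPARC, TIMP3, FGFR2, FGF18, WNT7A, JAG2, HES1, SMAD6, ID4, SOX17, TRIB3 and CYP24A1.

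**Figure D1:**
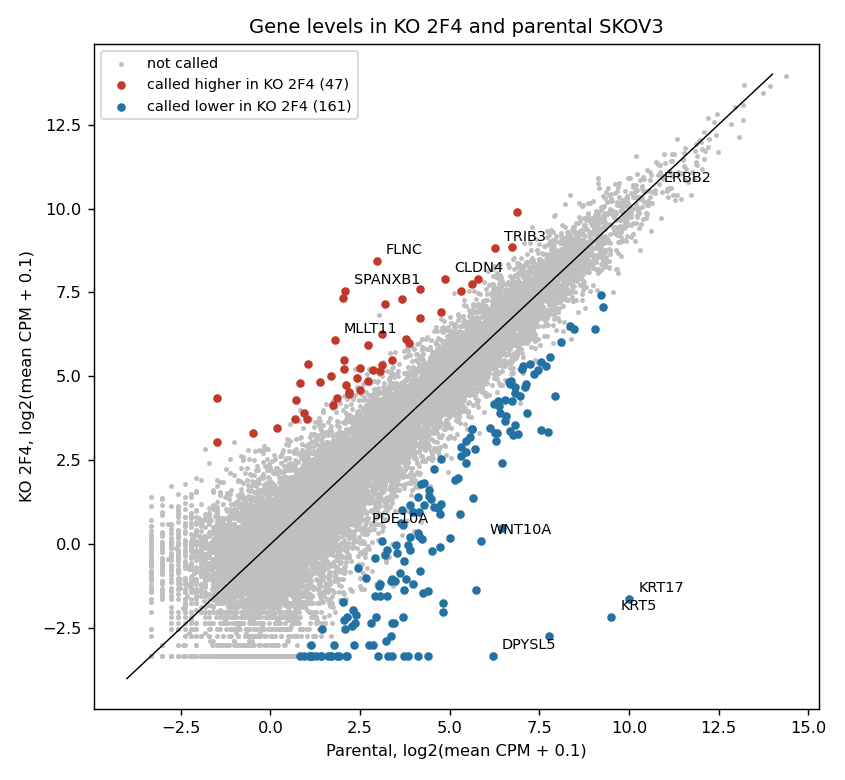
Mean level of each tested gene in KO 2F4 (vertical axis) and in parental cells (horizontal axis), both as log2 of mean CPM plus 0.1, with the 47 genes called higher in KO 2F4 in red and the 161 called lower in blue. The row of blue points along the bottom edge holds genes with no count in KO 2F4, DPYSL5 among them at 84.1 and 62.7 CPM in the parental libraries.

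The largest rise of a protein-coding gene was in FLNC, which encodes filamin C, an actin crosslinker best known from muscle. FLNC had 268 and 425 CPM in KO 2F4, against 9.79 and 5.73 CPM in parental cells (log2 fold change 5.49, SE 0.87, adjusted p 0.00659). SPANXB1, a sperm protein and cancer-testis antigen, had 151 and 220 CPM in KO 2F4, against 2.56 and 5.73 CPM in parental cells (log2 fold change 5.47, SE 0.59, adjusted p 0.000445). SPANX genes are near-identical copies of each other, so the split of reads among them is uncertain. MYO15B, a relative of the unconventional myosins, had 132 and 192 CPM in KO 2F4, against 5.05 and 2.82 CPM in parental cells (log2 fold change 5.38). In each of these genes both KO 2F4 libraries lay far above both parental libraries.

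Further rises were found in genes of varied function. MFAP2, a microfibril protein of the matrix, had 17.1 and 65.0 CPM in KO 2F4, against 1.21 and 2.73 CPM in parental cells (log2 fold change 4.35, SE 0.90, adjusted p 0.028). MLLT11, named from its fusion to the MLL gene in leukaemias, had 83.1 and 51.1 CPM in KO 2F4, against 2.56 and 4.21 CPM in parental cells (log2 fold change 4.30). HSPB8, a small heat shock protein, had 29.5 and 25.9 CPM in KO 2F4, against 1.21 and 2.17 CPM in parental cells (log2 fold change 4.01). The KO 2F4 libraries lay close to each other for HSPB8 and stood further apart for MFAP2. B4GALNT1, the enzyme that makes the gangliosides GM2 and GD2, had 100 and 185 CPM in KO 2F4, against 8.66 and 9.53 CPM in parental cells (log2 fold change 3.97, SE 0.47, adjusted p 0.000702). The other members of the 12 largest rises were PHETA2, NRSN2, the arylsulfatase ARSI, the adhesion molecule ICAM2 and the sugar-phosphate transporter SLC37A2, with log2 fold changes of 3.46 to 3.96. The calls of 3 of these were lost without parental library 1, with an adjusted p of 0.0891 for PHETA2, 0.0585 for ARSI and 0.0594 for ICAM2.

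Falls were ordered by their fitted fold change, which places genes with no count in KO 2F4 by the prior count, so their order among the falls is not established. The first was DPYSL5, a collapsin response mediator protein known from growing axons. DPYSL5 had no count in either KO 2F4 library, against 84.1 and 62.7 CPM in parental cells, at least 806-fold lower when 3 counts over the group are taken as the floor (adjusted p 0.000147). KRT5, the type II keratin of basal epithelial cells, had 0.245 and 0 CPM in KO 2F4, against 403 and 1056 CPM in parental cells (log2 fold change -12.28, adjusted p 0.000147). KRT17, a keratin induced in wounds, had 0.441 and 0 CPM in KO 2F4, against 1453 and 605 CPM in parental cells (log2 fold change -11.98, adjusted p 0.000147). KRT14, the partner of KRT5 in basal filaments, had 0.0981 and 0 CPM in KO 2F4, against 311 and 129 CPM in parental cells, a ratio of 3379 of parental cells over KO 2F4 with a 95% counting interval of 935 to 27904. These keratins were among the abundant transcripts of parental cells and all but absent in both KO 2F4 libraries. The keratin family has near-identical pseudogenes, which can take reads from its members.

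Another 8 of the 12 genes so chosen had no count in KO 2F4, and their limits lie below the fold changes of some called genes left out, such as HCLS1 at a log2 fold change of -8.00. SLC12A3, the thiazide-sensitive sodium chloride cotransporter, had 7.01 and 27.5 CPM in parental cells and was at least 224-fold lower in KO 2F4. NMUR2, a receptor for neuromedin U, was at least 168-fold lower in KO 2F4, and ZBTB46, a zinc finger transcription factor known from dendritic cells, at least 154-fold. RNF212, a factor of meiotic recombination, was at least 124-fold lower in KO 2F4, and PPP1R14A, an inhibitor of myosin phosphatase, at least 103-fold. These genes lay between 7.01 and 27.5 CPM in the parental libraries, so that their depth sets the size of these limits. CACNG4, an auxiliary subunit of glutamate receptors, was at least 92.9-fold lower in KO 2F4, the calcium channel subunit CACNA2D2 at least 51.5-fold and TIMP3, a matrix-bound inhibitor of metalloproteases, at least 48.2-fold. TIMP3 lies within SYN3, which runs on the other strand, and the sources used here do not give the strand setting of the counting.

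Among called genes outside the protein-coding class, TAT-AS1 had 10.9 and 29.7 CPM in KO 2F4, against 0 and 0.509 CPM in parental cells (log2 fold change 6.13, and 11.79 without parental library 2). LINC02154, a long intergenic RNA, had 6.47 and 9.98 CPM in KO 2F4, against 0.377 and 0.139 CPM in parental cells (log2 fold change 5.05). TAT-AS1 is annotated antisense to TAT, so its reads are uncertain for the same reason of strand. AL133163.3 had no count in KO 2F4, against 24.6 and 17.7 CPM in parental cells, at least 231-fold lower. The other falls were ENSG00000273564.2, at least 23.1-fold lower, and ENSG00000286169.1, with a log2 fold change of -5.46 (-9.76 without KO 2F4 library 1).

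**Figure D2:**
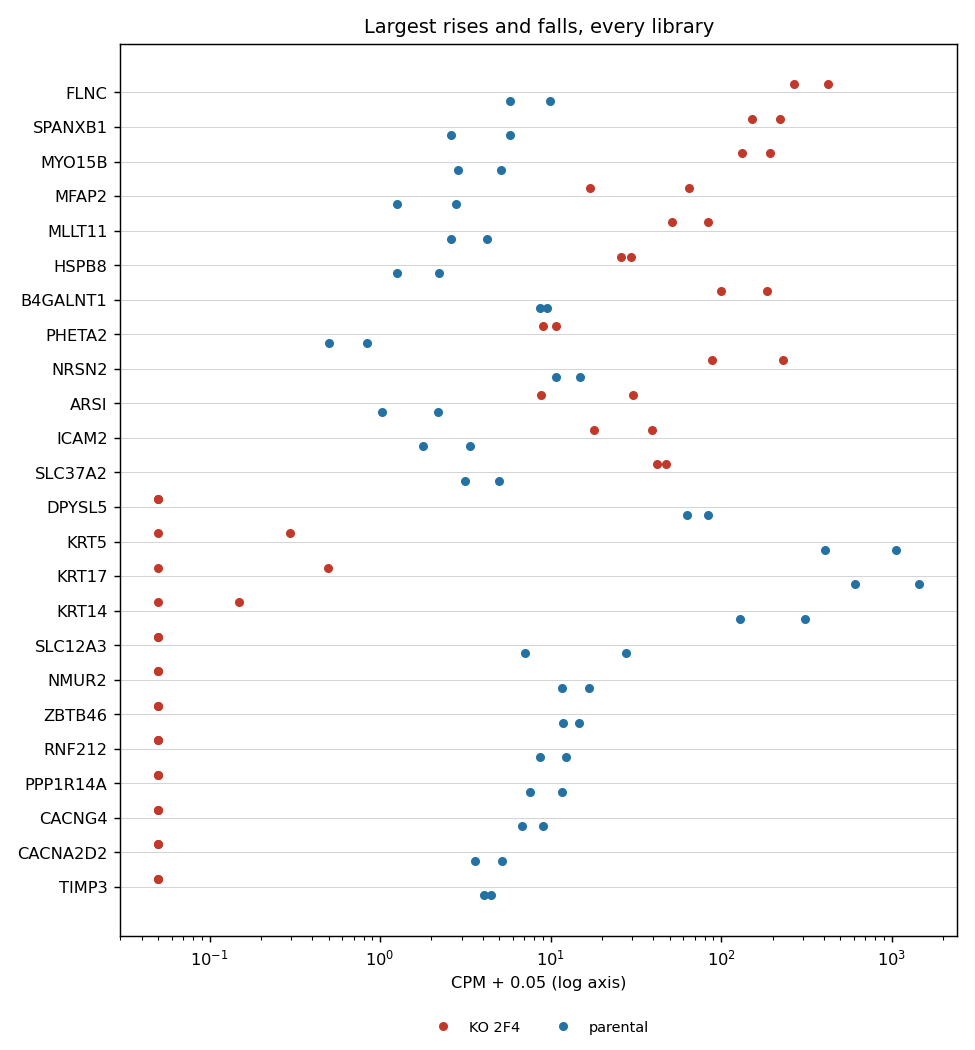
Level in each library of 24 protein-coding genes, the 12 that rose and the 12 that fell by most in the fitted fold change, as CPM plus 0.05 on a log axis, with KO 2F4 in red and parental cells in blue. The points at the left edge are libraries with no count, and KO 2F4 and parental points of a gene do not overlap.

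The promoters of 3 of these genes are shown because FLNC had the largest rise of a protein-coding gene, DPYSL5 went without a count in KO 2F4 and KRT5 had the largest fitted fall of a keratin, and because CREB and TCF bind known letters. Each runs from 250 bases before to 50 bases after the start of transcription and comes from RefSeq on GRCh38.p14. Capitals mark CG dinucleotides, which number 42 in the FLNC promoter (chr7:128830156-128830455, plus strand), 34 in the DPYSL5 promoter (chr2:26847745-26848044, plus strand) and 7 in the KRT5 promoter (chr12:52520345-52520644, minus strand).
FLNC: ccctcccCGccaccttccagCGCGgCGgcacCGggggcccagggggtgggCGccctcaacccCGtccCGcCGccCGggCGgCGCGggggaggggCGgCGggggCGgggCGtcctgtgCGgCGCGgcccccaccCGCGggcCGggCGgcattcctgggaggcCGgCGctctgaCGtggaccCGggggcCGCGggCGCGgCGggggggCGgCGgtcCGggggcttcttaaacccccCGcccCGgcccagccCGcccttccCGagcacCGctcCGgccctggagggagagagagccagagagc
DPYSL5: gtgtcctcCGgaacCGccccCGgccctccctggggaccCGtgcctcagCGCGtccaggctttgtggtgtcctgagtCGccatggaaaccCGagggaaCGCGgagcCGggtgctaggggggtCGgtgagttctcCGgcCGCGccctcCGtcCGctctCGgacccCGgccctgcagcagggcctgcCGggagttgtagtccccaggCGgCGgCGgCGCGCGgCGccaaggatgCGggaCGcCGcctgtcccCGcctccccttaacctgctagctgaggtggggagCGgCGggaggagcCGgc
KRT5: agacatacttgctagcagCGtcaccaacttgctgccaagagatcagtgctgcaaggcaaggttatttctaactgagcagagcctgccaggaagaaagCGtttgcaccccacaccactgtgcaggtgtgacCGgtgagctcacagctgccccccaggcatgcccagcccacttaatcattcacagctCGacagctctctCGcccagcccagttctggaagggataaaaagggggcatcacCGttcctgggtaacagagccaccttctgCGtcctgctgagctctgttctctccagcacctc
The median over all 27305 promoters of the table was 14 CG dinucleotides, with quartiles of 3 and 28, so FLNC and DPYSL5 lay above the upper quartile and KRT5 between the quartiles. The full cAMP response element TGACGTCA, whose reverse complement is the same, was found in none of the 3, and neither was the TCF and LEF core CTTTGA or its reverse complement TCAAAG. Over all promoters of the table, 540 (1.98%) held the cAMP response element and 3578 (13.1%) held the TCF and LEF core. Only 71.5% of the genes tested matched a promoter, so a comparison of called genes with the rest was void.

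Genes were also read by lists of pathways and cell types. Of 1071 listed genes, 863 were tested and 44 passed (5.10%, beside 1.34% of all genes tested), 9 higher and 35 lower. The lists were drawn up with earlier results known, so this share supports nothing. Median log2 fold changes of lists stand beside the -0.03 of all genes. Placing genes with no count in a group at their limit changed none of these medians at this precision. Counts of calls by edgeR stand beside the 1.34% of all genes tested, and counts of negative log2 fold changes beside 7954 of all 15551. Counts at an unadjusted p of 0.05 stand beside 2153 of the 15551, and counts by DESeq2 beside its 727 calls among the same genes.

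Most of the basal and wound keratins fell. Of 6 tested, 4 were lower in KO 2F4 and 0 higher, with a median log2 fold change of -9.46. They were KRT5, KRT14, KRT17 and KRT6A, a keratin of activated keratinocytes that had 0.049 and 0 CPM in KO 2F4, against 6.03 and 3.84 CPM in parental cells. KRT16 had 0.147 and 2.26 CPM in KO 2F4, against 24.5 and 7.49 CPM in parental cells, and missed the threshold (log2 fold change -3.78, adjusted p 0.081). KRT15 had 7.55 and 0.51 CPM in KO 2F4, against 4.75 and 1.99 CPM in parental cells. The keratins of simple epithelia gave no call among 4 tested. KRT18, for example, had 965 and 1103 CPM in KO 2F4, against 1818 and 640 CPM in parental cells.

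Genes of epithelial junctions and surface went both ways, with 1 higher and 3 lower of 31 tested and a median of -0.80. CLDN4, a tight junction claudin, had 226 and 250 CPM in KO 2F4, against 24.5 and 33.9 CPM in parental cells (log2 fold change 3.02, SE 0.50, adjusted p 0.0087). MAL2, a protein of apical transport, had 2.26 and 1.75 CPM in KO 2F4, against 20.3 and 30.8 CPM in parental cells (log2 fold change -3.66). F11R, the junctional adhesion molecule A, had 13 and 8.30 CPM in KO 2F4, against 41.0 and 58.0 CPM in parental cells (log2 fold change -2.21). CLDN4 thus rose while MAL2 and F11R fell. CD24, a mucin-like surface glycoprotein, fell as well (log2 fold change -1.83, adjusted p 0.041). F11R lost its call without KO 2F4 library 2 (adjusted p 0.0595). CD24 lost it without parental library 1 (adjusted p 0.0992), without parental library 2 (0.0889) and without KO 2F4 library 2 (0.0552). CDH1, E-cadherin, was low in both lines at 0.638 and 0 CPM in KO 2F4, against 1.51 and 3.51 CPM in parental cells, and was called only without KO 2F4 library 1 (adjusted p 0.00294).

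Of 21 mesenchymal genes, 0 were higher and 1 was lower in KO 2F4, with a median of 0.09. SPARC, a collagen-binding matrix glycoprotein, had 7.85 and 11.7 CPM in KO 2F4, against 102 and 57.2 CPM in parental cells (log2 fold change -3.03, SE 0.47, adjusted p 0.00572). VIM, the intermediate filament protein vimentin, had 1852 and 2481 CPM in KO 2F4, against 2675 and 1878 CPM in parental cells, and these values overlapped. Of 20 listed and tested collagen genes 1 was called lower, and the median was -1.32. COL1A2, a chain of type I collagen, had 0.196 and 0.291 CPM in KO 2F4, against 9.19 and 7.35 CPM in parental cells (log2 fold change -5.08, adjusted p 0.00445). The summed level of 9 fibroblast markers moved with these genes, at 12 and 50.3 CPM in KO 2F4, against 141 and 130 CPM in parental cells. Most of the parental sum was COL1A1, at 2.50 and 34.0 CPM in KO 2F4, against 126 and 124 CPM in parental cells. Of the 9 markers 6 were tested, 3 with a positive and 3 with a negative log2 fold change. DCN and COL3A1 had no count in KO 2F4, against 3.92 and 0.185 CPM for DCN and 1.13 and 0.231 CPM for COL3A1 in parental cells. PDPN was higher in both KO 2F4 libraries, at 4.46 and 5.32 CPM in KO 2F4, against 0.678 and 1.99 CPM in parental cells, as was PDGFRB, at 3.14 and 5.75 CPM in KO 2F4, against 2.41 and 1.90 CPM in parental cells, and neither was called. Whether other cells had a part in the collagen values was not tested, and in bulk RNA fewer cells of a type and less RNA per cell cannot be told apart.

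Other matrix genes were mixed. Matrix glycoproteins and laminins had 2 higher and 2 lower of 28 tested, with a median of -0.48. NID1 and NID2, the nidogens that link laminin to type IV collagen, went opposite ways. NID1 had 11.8 and 10.1 CPM in KO 2F4, against 0.979 and 1.11 CPM in parental cells (log2 fold change 3.38, adjusted p 0.0159). NID2 had 0 and 0.583 CPM in KO 2F4, against 24.8 and 81.3 CPM in parental cells (log2 fold change -7.69, adjusted p 0.0021). Likewise the microfibril protein MFAP2 rose, while its relative MFAP5 had 16 and 20.1 CPM in KO 2F4, against 81.6 and 69.7 CPM in parental cells (log2 fold change -2.07). NID1 and MFAP5 lost their calls without parental library 1 (adjusted p 0.0507 for NID1 and 0.0819 for MFAP5). The log2 fold change of NID2 was -13.26 without KO 2F4 library 2.

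Listed matrix proteases and inhibitors had TIMP3 as the call among 20 tested, with a median of 0.36. Outside the lists, the collagen COL23A1 (log2 fold change -5.75, adjusted p 0.00928) and the metalloproteases MMP17 (-4.80) and ADAMTS15 (-4.46) fell as well, and ADAMTS14 fell with no count in KO 2F4. Contractile and SRF target genes had 1 lower of 18 tested, CNN1, the calponin of smooth muscle, with 3 counts in KO 2F4 (0 and 0.218 CPM), against 2.71 and 5.46 CPM in parental cells. The ratio of CNN1 in parental cells over KO 2F4 was 50.2, with a 95% counting interval of 16.9 to 246, and its log2 fold change moved to -9.56 without KO 2F4 library 2. Integrin subunits had 0 calls by edgeR among 17 tested, with 4 at an unadjusted p of 0.05 and 3 called by DESeq2.

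**Figure D3:**
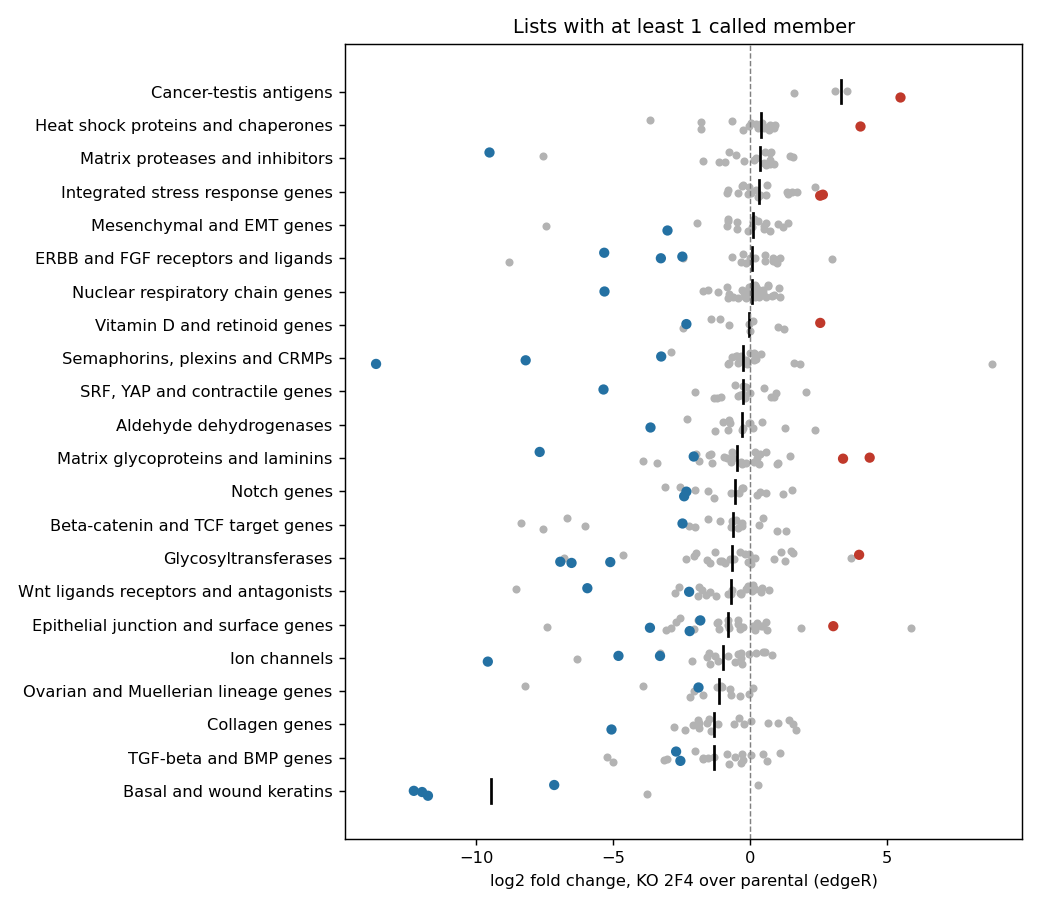
Log2 fold change of KO 2F4 over parental cells for each tested gene (points) of the lists with at least 1 call, with genes called higher in red, genes called lower in blue, other genes in grey, the median of each list as a black bar and the median of all genes as a dashed line. Basal keratins lie furthest left with a median of -9.46, cancer-testis antigens furthest right with a median of 3.30, and the medians of the other lists between -1.34 and 0.39.

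The lists closest to PDE10A itself held no called gene. Phosphodiesterases had 0 calls by edgeR among 13 tested (3 at an unadjusted p of 0.05, 0 by DESeq2). Their median log2 fold change was -1.19, with 10 negative and 3 positive. Cyclases and effectors of cyclic nucleotides had 0 among 23 (4 unadjusted, 1 by DESeq2). CREB targets and immediate-early genes had 0 among 17 (4 unadjusted, 1 by DESeq2), with a median of 0.44. Genes of the RAS and ERK pathway had 0 among 19 (4 unadjusted, 1 by DESeq2), and genes of ERK feedback and output 0 among 20 (4 unadjusted, 2 by DESeq2). NRAS, a RAS GTPase, had 12.6 and 11.9 CPM in KO 2F4, against 7.38 and 11.4 CPM in parental cells. DUSP6, a phosphatase that ERK induces, was near 0 in 3 of the 4 libraries, with 1.91 and 0 CPM in KO 2F4, against 0 and 0.0462 CPM in parental cells. None of these members passed in edgeR's test across all genes, which does not show that they were unchanged. Outside the lists, DUSP9, a relative of DUSP6, was called lower (log2 fold change -3.89, adjusted p 0.0114). DUSP9 had 2.11 and 1.46 CPM in KO 2F4, against 11.1 and 42.1 CPM in parental cells.

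Wnt ligands were among the genes that fell in KO 2F4. Among 26 Wnt ligands, receptors and antagonists, 2 fell and 0 rose, 20 had a negative log2 fold change and the median was -0.69, where 7954 of all 15551 genes were negative. WNT10A, a secreted Wnt ligand of epithelia, had 0.49 and 1.46 CPM in KO 2F4, against 67.6 and 49.0 CPM in parental cells (log2 fold change -5.95, SE 0.66, adjusted p 0.00048). WNT7A, a ligand of Muellerian epithelium, had 33.9 and 61.6 CPM in KO 2F4, against 220 and 229 CPM in parental cells (log2 fold change -2.23, SE 0.43, adjusted p 0.0204). WNT10A was thus almost lost and WNT7A reduced, with both KO 2F4 libraries below both parental ones.

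Targets of beta-catenin and TCF had 1 lower of 22 tested, 18 with a negative log2 fold change, and a median of -0.65. The gene was FGF18, a fibroblast growth factor, with 13.9 and 16.2 CPM in KO 2F4, against 100 and 67.8 CPM in parental cells (log2 fold change -2.48, SE 0.43, adjusted p 0.0114). CTNNB1, which encodes beta-catenin, had 69.7 and 57.8 CPM in KO 2F4, against 17.9 and 37.8 CPM in parental cells, without overlap but not past the threshold (log2 fold change 1.19, adjusted p 0.242). With GC and length offsets CTNNB1 passed (log2 fold change 1.33, adjusted p 0.0411). The known targets MYC, CCND1, BIRC5 and AXIN2 were not called. MYC had 56.9 and 49.4 CPM in KO 2F4, against 34.8 and 43.1 CPM in parental cells, and CCND1 had 128 and 58.6 CPM in KO 2F4, against 137 and 121 CPM in parental cells.

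Growth factor genes of the ERBB and FGF families had 3 lower and 0 higher of 20 tested, with a median of 0.08. In the list 10 genes had a positive and 10 a negative log2 fold change. They were FGF18, FGFR2, a receptor of FGFs, and FGFBP1, a secreted carrier that releases FGFs from the matrix. FGFBP1 had 11.9 and 11.6 CPM in KO 2F4, against 101 and 125 CPM in parental cells (log2 fold change -3.26, SE 0.48, adjusted p 0.00354). FGFR2 had 0.049 and 0.218 CPM in KO 2F4, against 3.24 and 7.03 CPM in parental cells (log2 fold change -5.33, SE 0.88, adjusted p 0.00838). A ligand, a carrier and a receptor of the FGF system were each lower in both KO 2F4 libraries, while the list as a whole was evenly split.

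TGF-beta and BMP genes had 2 lower of 21 tested, 17 with a negative log2 fold change and a median of -1.34. SMAD6, an inhibitory SMAD of BMP signalling, had 20.8 and 21.5 CPM in KO 2F4, against 70.3 and 178 CPM in parental cells (log2 fold change -2.55). ID4, a dominant negative helix-loop-helix factor induced by BMPs, had 6.47 and 5.61 CPM in KO 2F4, against 19.5 and 59.5 CPM in parental cells (log2 fold change -2.71). Parental library 2 set the size of both, since without it SMAD6 had a log2 fold change of -1.69 (adjusted p 0.0735) and ID4 one of -1.65 (adjusted p 0.116).

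Notch genes had 2 lower of 16 tested and a median of -0.56. JAG2, a ligand of Notch, had 23 and 22.1 CPM in KO 2F4, against 95.2 and 132 CPM in parental cells (log2 fold change -2.33, SE 0.41, adjusted p 0.0114). HES1, the repressor that Notch induces, had 6.87 and 7.94 CPM in KO 2F4, against 43.1 and 35.9 CPM in parental cells (log2 fold change -2.42, SE 0.47, adjusted p 0.0199). A ligand and a target of the pathway were lower in both KO 2F4 libraries, though HES1 reached only an adjusted p of 0.0502 without parental library 1.

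Semaphorins, plexins and collapsin response mediators had 3 lower of 24 tested, with a median of -0.26. Beside DPYSL5, the secreted guidance cue SEMA3A had no count in KO 2F4, against 1.81 and 1.53 CPM in parental cells, at least 18.6-fold lower. SEMA6B, a transmembrane semaphorin, had 3.43 and 26.6 CPM in KO 2F4, against 179 and 105 CPM in parental cells (log2 fold change -3.25, adjusted p 0.0493, and -5.35 without KO 2F4 library 2). Scaled by RLE size factors SEMA6B missed the threshold (adjusted p 0.0737).

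Among glycosyltransferases 1 was higher and 3 were lower of 30 tested, with a median of -0.66. Beside the rise of B4GALNT1, MGAT3, which adds the bisecting N-acetylglucosamine of N-glycans, had 0.392 and 0 CPM in KO 2F4, against 24.3 and 31.4 CPM in parental cells (log2 fold change -6.93, and -12.20 without KO 2F4 library 1). GALNT16, which starts O-glycans, had 0.196 and 0 CPM in KO 2F4, against 9.72 and 11.9 CPM in parental cells (log2 fold change -6.52, and -10.84 without KO 2F4 library 1). B4GALNT3 fell too, with 0.49 and 0 CPM in KO 2F4, against 9.64 and 9.39 CPM in parental cells (log2 fold change -5.11, and -10.65 without KO 2F4 library 1). The sizes of these folds rest on a handful of reads in KO 2F4, and their direction did not.

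Ion channel genes had 3 lower of 22 tested, 18 with a negative log2 fold change and a median of -1.0. Beside CACNA2D2, the T-type calcium channel CACNA1H had 0.294 and 0.437 CPM in KO 2F4, against 3.62 and 16.7 CPM in parental cells (log2 fold change -4.81, adjusted p 0.0159).

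Lineage and stress genes gave few calls. Of 14 ovarian and Muellerian genes 1 was lower, 13 had a negative log2 fold change and the median was -1.14. SOX17, a transcription factor of the Muellerian tract, had 22.3 and 31.7 CPM in KO 2F4, against 89.4 and 114 CPM in parental cells (log2 fold change -1.92, SE 0.41, adjusted p 0.0326). Its adjusted p was 0.0541 without parental library 1, 0.0719 without parental library 2 and 0.0562 without KO 2F4 library 1. Of 20 genes of the integrated stress response 2 were higher, with a median of 0.31. TRIB3, a pseudokinase induced by ATF4, had 355 and 545 CPM in KO 2F4, against 73.4 and 80.5 CPM in parental cells (log2 fold change 2.55), and GDF15, a stress-induced cytokine, had 25.9 and 27.5 CPM in KO 2F4, against 2.64 and 5.83 CPM in parental cells (log2 fold change 2.64). Both lost their call without parental library 1 (adjusted p 0.0813 for TRIB3 and 0.23 for GDF15). Among 19 heat shock proteins and chaperones HSPB8 was the call.

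Metabolic genes gave single calls. Of 15 aldehyde dehydrogenases 1 was lower, ALDH3A1, which oxidises aromatic and lipid aldehydes, with 12 and 7.14 CPM in KO 2F4, against 60.3 and 182 CPM in parental cells (log2 fold change -3.65, adjusted p 0.00445). Of 35 nuclear genes of the respiratory chain 1 was lower, COX7A1, the muscle isoform of a cytochrome oxidase subunit, with 0.687 and 0 CPM in KO 2F4, against 22 and 9.16 CPM in parental cells (log2 fold change -5.35, and -11.35 without KO 2F4 library 1). Of 11 vitamin D and retinoid genes 1 was higher and 1 lower. CYP24A1, which inactivates vitamin D, had 17.1 and 23.7 CPM in KO 2F4, against 4.37 and 2.64 CPM in parental cells (log2 fold change 2.55, adjusted p 0.027). Of 26 cancer-testis antigens 4 were tested and 1, SPANXB1, was called.

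Lists of cell division, survival and immune genes held no call by edgeR. Of DNA replication genes 0 of 30 passed (2 at an unadjusted p of 0.05, 0 by DESeq2), of mitosis genes 0 of 29 (5 unadjusted, 0 by DESeq2) and of BCL2 family genes 0 of 15 (3 unadjusted, 0 by DESeq2). Genes of NF-kB, chemokines and complement gave 0 of 22 (3 unadjusted, 0 by DESeq2) with a median of 0.72, interferon-stimulated genes 0 of 28 (3 unadjusted, 0 by DESeq2) and HLA class I genes 0 of 10 (1 unadjusted, 1 by DESeq2). Lists were matched by symbol, so entries without a symbol could not be counted, HLA copies included. ENSG00000206450.11, without a symbol, was called lower, at 12.4 and 8.66 CPM in KO 2F4, against 207 and 165 CPM in parental cells (log2 fold change -4.14). ENSG00000224608.10 (-3.09) and ENSG00000223532.10 (-3.07) were called lower as well. Which genes these entries stand for was not resolved here. ABC transporters gave 0 of 20 (2 unadjusted, 0 by DESeq2), HOX genes 0 of 23 (2 unadjusted, 0 by DESeq2) with 19 negative, and S100 genes 0 of 11 (4 unadjusted, 2 by DESeq2). Genes of cholesterol and fatty acid synthesis gave 0 of 30 (2 unadjusted, 1 by DESeq2) and ribosomal proteins 0 of 47 (3 unadjusted, 0 by DESeq2). Hypoxia and glycolysis genes gave 0 of 26 (4 unadjusted, 1 by DESeq2) and mitochondrially encoded genes 0 of 13 (1 unadjusted, 1 by DESeq2). Log2 fold changes were positive for 16 of the 22 NF-kB, chemokine and complement genes and 20 of the 29 mitosis genes. They were positive for 21 of the 30 genes of cholesterol and fatty acid synthesis.

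The second knockout clone shows which of these genes differed between clones. In the direct test of KO 2F4 against KO 5H5, 61 of 15551 genes passed (0.392%), and 14 of the 74 named genes were among them. Most named genes were chosen by their KO 2F4 values against parental cells. The direct test uses the same KO 2F4 libraries, so the share of named genes is no measure of how far the clones differ. FLNC stood at 14.2 and 6.32 CPM in KO 5H5 and at 0 and 0.645 CPM in EV 1B9, so that its high level in KO 2F4 was also well above the other clone (log2 fold change of KO 2F4 over KO 5H5 5.08, adjusted p 0.0234). KRT17 stood at 112 and 196 CPM in KO 5H5 and at 2039 and 5431 CPM in EV 1B9 (KO 2F4 over KO 5H5 -9.24, adjusted p 0.00118). TIMP3 had 7.55 and 9.89 CPM in KO 5H5 and 20.7 and 19.0 CPM in EV 1B9 (KO 2F4 over KO 5H5 -10.58, adjusted p 0.00118). Filamin C was thus high in KO 2F4 beside low values in the other 3 lines, and TIMP3 was without a count in KO 2F4 beside at least 3.99 CPM in every other library.

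Other named genes did not pass between the clones. DPYSL5 averaged 0.322 CPM in KO 5H5 and 118 CPM in EV 1B9, and KRT14 averaged 0.257 CPM in KO 5H5 and 2090 CPM in EV 1B9. The adjusted p of KO 2F4 against KO 5H5 was 0.275 for DPYSL5 and 0.706 for KRT14. Against parental cells, DPYSL5 had a log2 fold change of -7.96 in KO 5H5 and 0.69 in EV 1B9, and KRT14 one of -9.92 in KO 5H5 and 3.25 in EV 1B9. These contrasts share the parental libraries. For some genes the empty vector clone stood apart from parental cells as well, so that the 2 controls differ. CLDN4 averaged 1.77 CPM and TRIB3 12.9 CPM in EV 1B9, with log2 fold changes against parental cells of -4.06 (adjusted p 0.000922) for CLDN4 and -2.57 (adjusted p 0.0127) for TRIB3. PDE10A had 0.229 and 0.438 CPM in KO 5H5 and 4.94 and 8.87 CPM in EV 1B9.

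**Figure D4:**
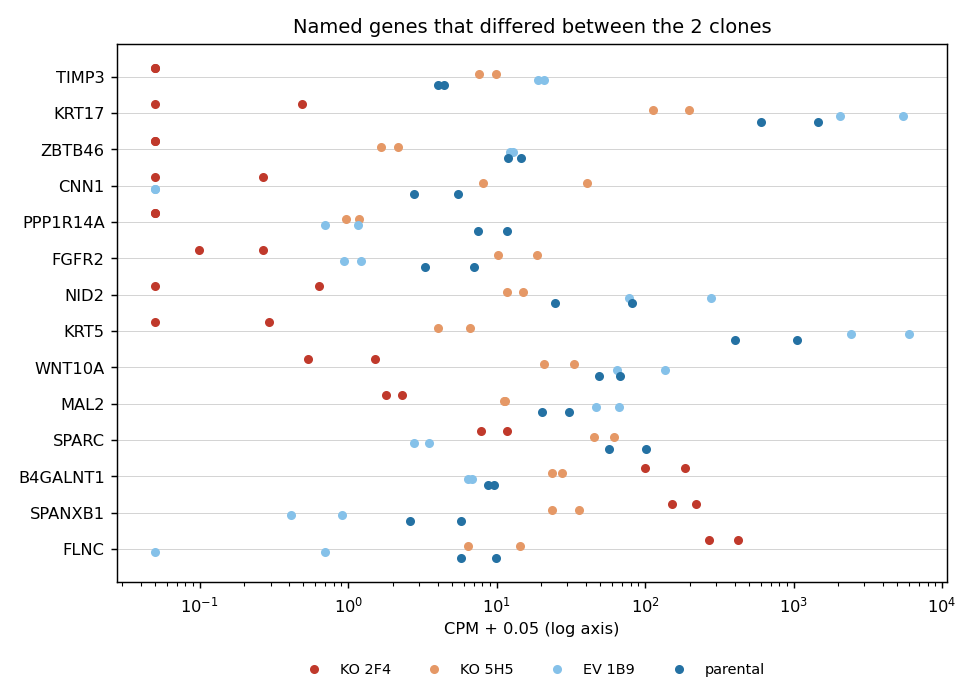
Level in every library of the 14 named genes that differed between KO 2F4 and KO 5H5, as CPM plus 0.05 on a log axis, with KO 2F4 in red, KO 5H5 in orange, EV 1B9 in light blue and parental cells in dark blue. FLNC, SPANXB1 and B4GALNT1 lie furthest right in KO 2F4, and TIMP3, ZBTB46 and PPP1R14A lie at the left edge, where a library has no count.

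Called genes were spread over the chromosomes, but whole chromosomes differed in their medians. Genes of chromosome 13 had a median log2 fold change of -0.62 over 264 tested genes, those of chromosome 21 -0.46 over 158 and those of chromosome 14 -0.33 over 491. Genes of chromosome 8 had a median of 0.36 over 526 tested, those of chromosome 17 one of 0.26 over 909 and those of chromosome 20 one of 0.17 over 429. Measured per library against the mean of all 8 libraries, the median log2 deviation of chromosome 13 was -0.45 and -0.54 in KO 2F4, against -0.28 and 0.07 in parental cells. That of chromosome 8 was 0.09 and -0.01 in KO 2F4, against -0.25 and -0.26 in parental cells. The KO 2F4 libraries lay below the parental ones on chromosome 13 and above them on chromosome 8, without overlap. Such separation was not particular to these chromosomes. The groups did not overlap on chromosomes 1, 5, 7, 9, 14, 15, 17, 20, 21, 22 and X either. Against parental cells, the chromosome 13 median was -0.23 in KO 5H5 and 0.94 in EV 1B9. The chromosome 8 median was 0.22 in KO 5H5 and 0.48 in EV 1B9, so chromosome 8 stood above parental cells in all 3 clones. The medians of chromosomes 2, 3, 5, 10, 12, 18 and X were also above 0 in all 3 clones. These contrasts share the parental libraries. On chromosome 13, 0 genes were called higher and 3 lower (1.14% of those tested). DNA copy number was not measured, and its part in these medians was not tested.

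**Figure D5:**
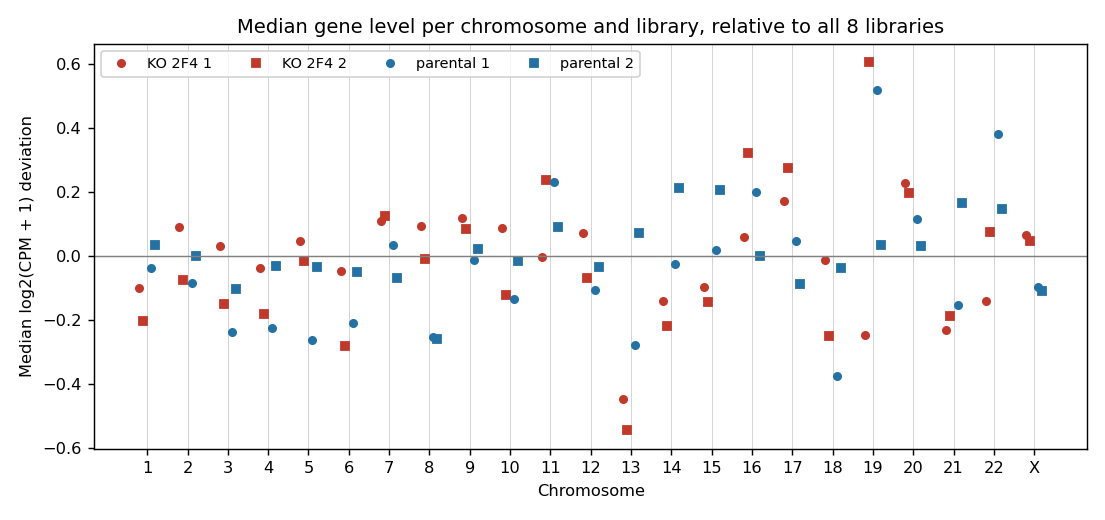
Median deviation per chromosome of log2(CPM + 1) from the mean of all 8 libraries, for genes averaging at least 5 CPM, with KO 2F4 in red and parental cells in blue, circles for library 1 and squares for library 2. On chromosome 13 the red points lie at -0.45 and -0.54, below the blue points at -0.28 and 0.07.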

How the data were processed

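RNA of the 4 lines was sequenced from a directional library kit, per the labels' protocols. The authors deposited raw counts per gene for the whole series, which the file description attributes to HTSeq. GRCh38, DESeq2 1.26.0, STAR 2.7.3a, HTSeq 0.11.3 and bcl2fastq 2.18.0.12 are named in the submitters' processing notes, while the sources used here do not give the strand setting or annotation release. The table held 67008 genes and 5 summary lines naming no gene, which were left out of totals and tests and made up 25.7% to 44.6% of the counted reads in the 4 libraries. Symbols were found for 58629 identifiers (87.5%), and coordinates come from GENCODE 29. Library 2 of each line carries the suffix UnTx in its title, whose meaning the sources used here do not give, and the labels describe every library as untreated. Libraries of the same line differed by more than sampling noise (chi-square per degree of freedom 177 in KO 2F4 and 95.9 in parental cells) and were counted as replicates.

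TMM factors ranged from 0.802 to 1.29, and filterByExpr with a minimum count of 10 and a minimum total of 15 chose the genes tested. All 8 libraries entered edgeR 4.0.16's quasi-likelihood fit with 1 mean per line, under R 4.3.3, and the contrast KO 2F4 minus parental was adjusted by Benjamini-Hochberg over all genes tested at 0.05. The procedure was run on counts simulated from fitted spreads with independent libraries. These carried no differences in GC content or quality between libraries, so the run does not bear on such differences. Floors of 3 counts and 95% intervals cover counting error only. Promoters were matched to RefSeq by symbol or identifier, for 71.5% of the genes tested.

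The members, the lists and the naming rule were chosen with earlier results of these data known. By the rule, the text names PDE10A, the 12 largest rises and falls of called protein-coding genes that averaged at least 1 CPM without overlap, the 3 largest of other classes, up to 3 called genes per list and a set of pathway genes given whether called or not. KRT6A, KRT15, KRT16, KRT81, CD24, B4GALNT3, PAX8, KRT7, ARID1A, CDKN2A, HCLS1, DUSP9, COL23A1, MMP17, ADAMTS14, ADAMTS15, ENSG00000206450.11, ENSG00000224608.10, ENSG00000223532.10 and the marker genes were named after their values were seen. Some genes that the rule chose are not reported here. The alternatives comprised DESeq2 1.42.0, RLE size factors, no filter, the 4 libraries alone, the title suffix as a block, GC and length offsets with and without the block (natural splines with 5 degrees of freedom), and leaving out single libraries or both parental 1 and KO 2F4 2. Where a library was left out, the lone one of its line was assumed to vary like the other lines.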

Additional observations from a re-analysis of the deposited data

Results flagged for a closer look

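For 14 named genes the change of KO 2F4 against parental cells differed from that of KO 5H5 against parental cells, by the direct test of the clones across all genes (edgeR, adjusted p under 0.05). The difference, KO 2F4 minus KO 5H5 on the log2 scale, was -10.58 for TIMP3 (adjusted p 0.00118), -9.24 for KRT17 (0.00118), -8.35 for ZBTB46 (0.00941) and -7.94 for CNN1 (0.0133). It was -7.50 for PPP1R14A (0.0494), -6.81 for FGFR2 (0.00486), -5.70 for NID2 (0.031) and -5.18 for KRT5 (0.0274). It was -4.84 for WNT10A (0.0044), -2.48 for MAL2 (0.0394) and -2.46 for SPARC (0.0394). In the other direction it was 2.48 for B4GALNT1 (0.0279), 2.64 for SPANXB1 (0.0441) and 5.08 for FLNC (0.0234). TIMP3, ZBTB46 and PPP1R14A had no count in KO 2F4, so their fitted differences depend on the prior count and are no bound.

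Against parental cells, KRT5 fell in KO 5H5 as well (log2 fold change -7.10, adjusted p 0.000772), while KRT17 had a log2 fold change of -2.74 there (adjusted p 0.122). SPANXB1 had 151 and 220 CPM in KO 2F4, against 23.7 and 35.7 CPM in KO 5H5, where it also rose over parental cells (2.82, adjusted p 0.0234). CNN1 had 8.06 and 40.4 CPM in KO 5H5 and no count in EV 1B9, and FGFR2 had 10.1 and 18.5 CPM in KO 5H5 and 1.16 and 0.887 CPM in EV 1B9. SPARC had 62.0 and 45.2 CPM in KO 5H5 and 3.46 and 2.74 CPM in EV 1B9, which was also lower than parental cells (log2 fold change -4.67, adjusted p 0.000222).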

How the results depend on the processing

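With 2 passages a side of 1 clone and its parent, counts of calls moved with the setting, while no called gene changed sign under any of the 12 alternatives. Against 208 calls (47 higher, 161 lower), 44 of them list members, and 14 named genes that differed from KO 5H5, no filter gave 465 (158, 307), 74 and 28, and DESeq2 727 (264, 463), 93 and 25. The 4 libraries alone gave 53 (10, 43) and 15, and 33 of the 60 named called genes lost their call. GC and length offsets gave 588 (308, 280) and 72, and with the replicate block 454 (226 higher). Without both parental 1 and KO 2F4 2 there were 414 calls (355 lower) and 28 genes between clones. Leaving out 1 library gave 214 to 1239 calls, 21 to 442 higher and 193 to 843 lower, 44 to 111 list members and 24 to 30 genes between clones.

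The title suffix did not pair the samples, since deviations of same-suffix libraries correlated at -0.256 to 0.204 between lines. As a replicate block it gave 147 calls (25 higher, 122 lower), 34 list members and 8 genes between clones, and 11 of the 60 named called genes lost their call.

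PDE10A ranged from -4.80 to -1.10 over omissions of a library and was called without both parental 1 and KO 2F4 2 (-3.65, adjusted p 0.0281). Genes that were not called changed sign in places. With offsets and the block, VIM was at 0.0414 and KRT18 at 0.0057. Over omissions of a library, VIM ranged from -0.277 to 0.19, KRT18 from -0.77 to 0.67, ERBB2 from -0.33 to 0.0192, CCND1 from -1.139 to 0.00783, DUSP6 from -2.48 to 7.42 and AXIN2 from -4.24 to 0.34. Without both libraries, CCND1 was at 0.10 and KRT18 at 0.61. The causes were not tested.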

Other observations

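Some called genes outside the lists, chosen after their values were seen, add to the account of KO 2F4. UCP2, a mitochondrial uncoupling protein homologue, had 381 and 1541 CPM in KO 2F4, against 116 and 120 CPM in parental cells (log2 fold change 3.03, adjusted p 0.0253). Its call was lost without parental library 1 (adjusted p 0.0626), and without KO 2F4 library 2 its log2 fold change was 1.71. HES2, a basic helix-loop-helix factor of the same family as HES1, had 0.834 and 0.874 CPM in KO 2F4, against 20.0 and 33.3 CPM in parental cells (log2 fold change -4.96, SE 0.52, adjusted p 0.000338). DTX1, a deltex ubiquitin ligase that acts on Notch, had 0.785 and 0.801 CPM in KO 2F4, against 8.36 and 10.4 CPM in parental cells (log2 fold change -3.56). OVOL2, a transcription factor of epithelial identity, had 0.0981 and 0 CPM in KO 2F4, against 11.3 and 9.20 CPM in parental cells. LSR, the receptor that forms tricellular junctions, had 4.56 and 12.2 CPM in KO 2F4, against 88.0 and 69.0 CPM in parental cells (log2 fold change -3.23).

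Other genes fell as well. IGFBP3, which binds insulin-like growth factors, had 73.7 and 97.3 CPM in KO 2F4, against 339 and 718 CPM in parental cells (log2 fold change -2.63), and IGFBP5, its relative, had 0 and 0.291 CPM in KO 2F4, against 37.2 and 18.5 CPM in parental cells. The log2 fold change of IGFBP5 was -7.74, and -12.30 without KO 2F4 library 2. RBP4, the carrier of retinol in plasma, had 8.48 and 12.2 CPM in KO 2F4, against 63.5 and 141 CPM in parental cells (log2 fold change -3.30). RET, a receptor tyrosine kinase, had 0.0981 and 0.583 CPM in KO 2F4, against 8.74 and 7.63 CPM in parental cells (log2 fold change -4.65). MALAT1, an abundant nuclear long noncoding RNA, had 12.5 and 7.43 CPM in KO 2F4, against 92.7 and 60.4 CPM in parental cells (log2 fold change -2.94, adjusted p 0.00516). The genes of these 2 paragraphs, other than UCP2, were called under each of the 4 omissions of a library.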
